A study of Homo sapiens with 4 samples.

Results

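The genes described here act in homologous recombination and in the Fanconi anaemia pathway of DNA crosslink repair, with the core genes of the competing end joining pathway set beside them. The 36 genes were taken from a fixed list of symbols: 31 of recombination and Fanconi repair and 5 of end joining (XRCC4, XRCC5, XRCC6, LIG4 and PRKDC). Each gene's value is the sum of the deposited normalized values of its transcripts, joined to GENCODE v29 genes by transcript identifier without its version. All 36 were among the 22031 genes obtained in this way, and all 36 were among the 16535 with a mean value of at least 10 over the 4 libraries, which were tested.

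RNA came from U87, an established human glioblastoma line, collected 48 h after lipofection of an oligonucleotide at 50 nM. The oligonucleotide was a mimic of tRF-3009a, which belongs to the small RNAs cut from the 3' side of transfer RNAs, in 2 libraries and ssGL2, a single strand directed at firefly luciferase that serves as the control, in the other 2. No untransfected group was analysed here, and the parent line, the transfection reagent, the dose and the time were shared by all 4 libraries. The labels number the libraries 1 and 2 within each treatment. They do not say what the number stands for, nor that libraries came from separate cultures, so every p-value measures only the spread between these libraries, which may be technical.

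Homologous recombination copies an intact sister chromatid to mend a double-strand break. The broken ends are resected to single strands, BRCA2 and its partners prepare them for strand exchange, and helicases and translocases complete it. The Fanconi pathway acts where both strands are joined by a crosslink: a core complex attaches ubiquitin to the FANCD2-FANCI pair at a stalled replication fork, and the resulting break is handed to recombination. End joining instead ligates broken ends directly and needs no sister chromatid, so it can act outside S and G2 phase, while many recombination genes are transcribed mainly as cells prepare to replicate their DNA.

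Recovered reads numbered 28860788 to 33848402 per library. The numbers stood apart more than the treatments: the log2 difference between numbers was larger in size than that between treatments for 13579 of the 16535 genes tested, 30 of the 31 recombination and Fanconi genes and all 5 end joining genes. The proliferation gene MKI67 had 13268 (control 1), 13035 (mimic 1), 2003 (control 2) and 2108 (mimic 2). The mesenchymal glioma list of 6 genes summed to 449283 and 403647 in number 1 against 248191 and 233517 in number 2, with VIM, CD44 and FN1 lower in number 2 (-1.09, -1.05 and -0.73) and TIMP1 higher (1.02). CDKN2A, which U87 cells are known to lack, was at 0 to 11.2. MTAP, listed with it as deleted in U87, was at 23.9 (control 1), 36.0 (mimic 1), 41.5 (control 2) and 26.8 (mimic 2). CDKN2B, of the same list, is not reported here. The glial marker GFAP was low, at 12.5 to 29.7. The leukocyte markers PTPRC and CD14 were at or below 6.72, while CD68 was at 7238 to 10220.4. S100B, AIF1 and RBFOX3 were not analysed here. Markers of other cell types moved between the numbers in both directions: OLIG2, ESRP1 and MAP2 were higher in number 2 (log2 differences 2.16, 4.52 and 2.01), and TEK, TUBB3, EPCAM and PECAM1 were lower (-2.23, -1.77, -1.58 and -1.24). The summed glial list was 123 and 131 in number 1 against 453 and 449 in number 2, the epithelial list 373 and 301 against 518 and 522, the endothelial list 159 and 186 against 57.2 and 40.1, and the neuronal list 8064 and 6885 against 4718 and 4229. The medians of the log2 differences between numbers over the tested genes of these lists were 0.16, 0.22, -1.24 and 0.40 in that order. The sums thus lean on single genes, and the neuronal sum and median go opposite ways. SOX2, of the glial list, was level between the numbers (0.012). The part of these markers in the results below was not tested.

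The mimic was compared with the control to ask whether the tRNA fragment changed these repair genes. No member passed the test. None of the 16535 genes did either (0% called by limma with Benjamini-Hochberg adjustment at 0.05) in this fit, which has no term for the library number and so does not show that treatment left genes unchanged, while at an unadjusted p under 0.05 limma gave 26 genes, edgeR 35 and DESeq2 23, with no member among limma's 26. The members' differences were small. Their median was -0.038 on the log2(value + 1) scale for the 31 recombination and Fanconi genes and 0.044 for the 5 end joining genes, against -0.014 over all genes tested. The median size of the difference, without its sign, was 0.077 for the 31 genes and 0.105 over all genes tested. RAD54B, a DNA translocase of strand exchange, had the highest difference (0.35 ± 0.90, SE, n = 2 per treatment), and FANCA, a subunit of the Fanconi core complex, had the lowest (-0.22 ± 0.97). With the highest transcript of each gene alone, the FANCA difference turned to 0.14, and that of ATM, at 0.18 for the gene sum, to -0.52. The standard errors are wide because each treatment holds a number 1 and a number 2 library, and the distance between those enters the spread.

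Set side by side within each number, the treatment differences had the same sign in both numbers for 14 of the 31 recombination and Fanconi genes and 2 of the 5 end joining genes, against 8270 of the 16535 genes tested. RAD54B was higher with the mimic in both numbers (log2 0.19 in number 1 and 0.50 in number 2), as was ATM (0.24 and 0.12). FANCA, UBE2T and FANCC were lower in both, with FANCA at -0.18 and -0.26, UBE2T at -0.18 and -0.22, and FANCC at -0.11 and -0.24. FANCM, the translocase that anchors the core complex to DNA, was 0.44 in number 1 and -0.57 in number 2, the widest split of sign among the members. RAD51AP1 (0.20 and -0.47), XRCC2 (0.21 and -0.36) and CHEK2 (0.27 and -0.34) split in the same way, while FANCE (-0.15 and 0.42) and RAD54L (-0.15 and 0.31) split the other way. These are differences between single libraries and have no test. The control and mimic ranges did not overlap for 1 member, RAD51C, with 832 and 875 in the controls against 819 and 803 with the mimic, and for 2048 of all genes tested.

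**Figure D1:**
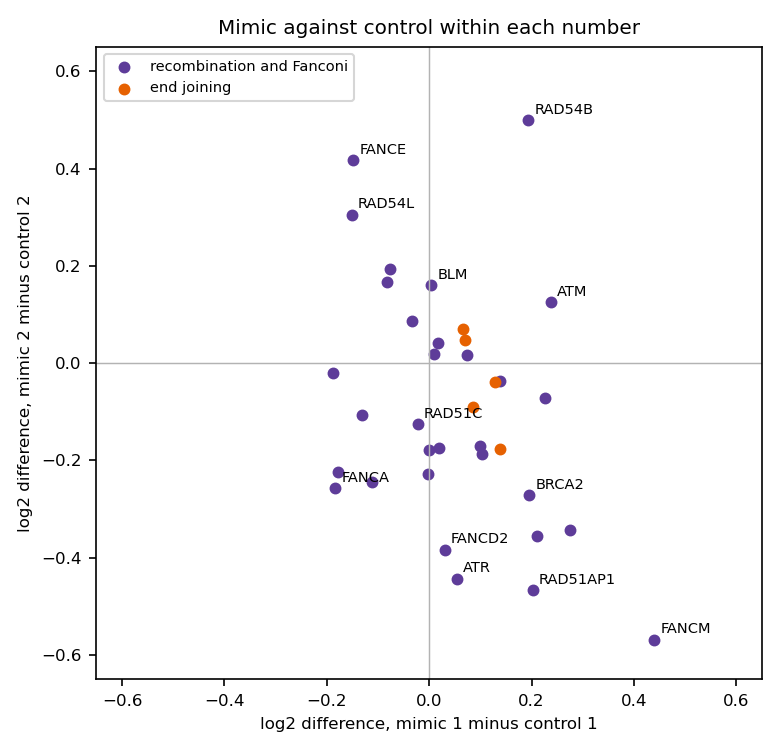
Log2 difference between the mimic and control libraries of number 1 (horizontal axis) against that of number 2 (vertical axis), one point per member, on the log2(value + 1) scale. Points in the lower left and upper right quadrants have the same sign in both numbers, as 14 of the 31 recombination and Fanconi genes (purple) and 2 of the 5 end joining genes (orange) do.

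Between the numbers the picture was different: recombination and Fanconi genes were mostly lower in the number 2 libraries, with and without the mimic. Of the 31 genes, 21 were lower in number 2 (limma, adjusted p under 0.05), where 24.2% of all genes tested were called lower. The genes higher in number 2 were BLM and XRCC3, 2 of 31, where 26.0% of all genes tested were called higher. The other 8 were not called (PALB2, BRCA2, RAD51C, RAD51B, FANCE, FANCF, FANCB and ATM). The median log2 difference of the 31 genes was -0.80, with -0.64 within the controls and -0.96 within the mimic libraries, against 0.0079 over all genes tested. Of the 31, 14 were lower by at least 1 on the log2 scale, and BLM was the single gene higher by as much. Of the 16535 genes tested, 1640 were lower and 1552 higher by at least 1. In bulk RNA, fewer cells of a kind and less RNA per cell cannot be told apart, and the number cannot be told apart from any culture or library step it stands for.

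The 5 end joining genes had a median nearer to 0. XRCC4, XRCC5, XRCC6 and PRKDC were lower in number 2 and LIG4 was not called, with a median of -0.41. The share called lower was 80% of these 5 genes, 67.7% of the 31 recombination and Fanconi genes and 24.2% of all genes tested. None of the 5 end joining genes was beyond 1 on the log2 scale in either direction, as for most of the 16535 genes tested. The ranges of the numbers did not overlap for 29 of the 31 recombination and Fanconi genes and all 5 end joining genes, nor for 12522 of the 16535 genes tested, so that separation by itself was common. Without control 2 or without mimic 2, the count of all genes called in either direction went from 8301 to 5430 and 5163, and the recombination and Fanconi genes called lower from 21 to 19 and 18.

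**Figure D2:**
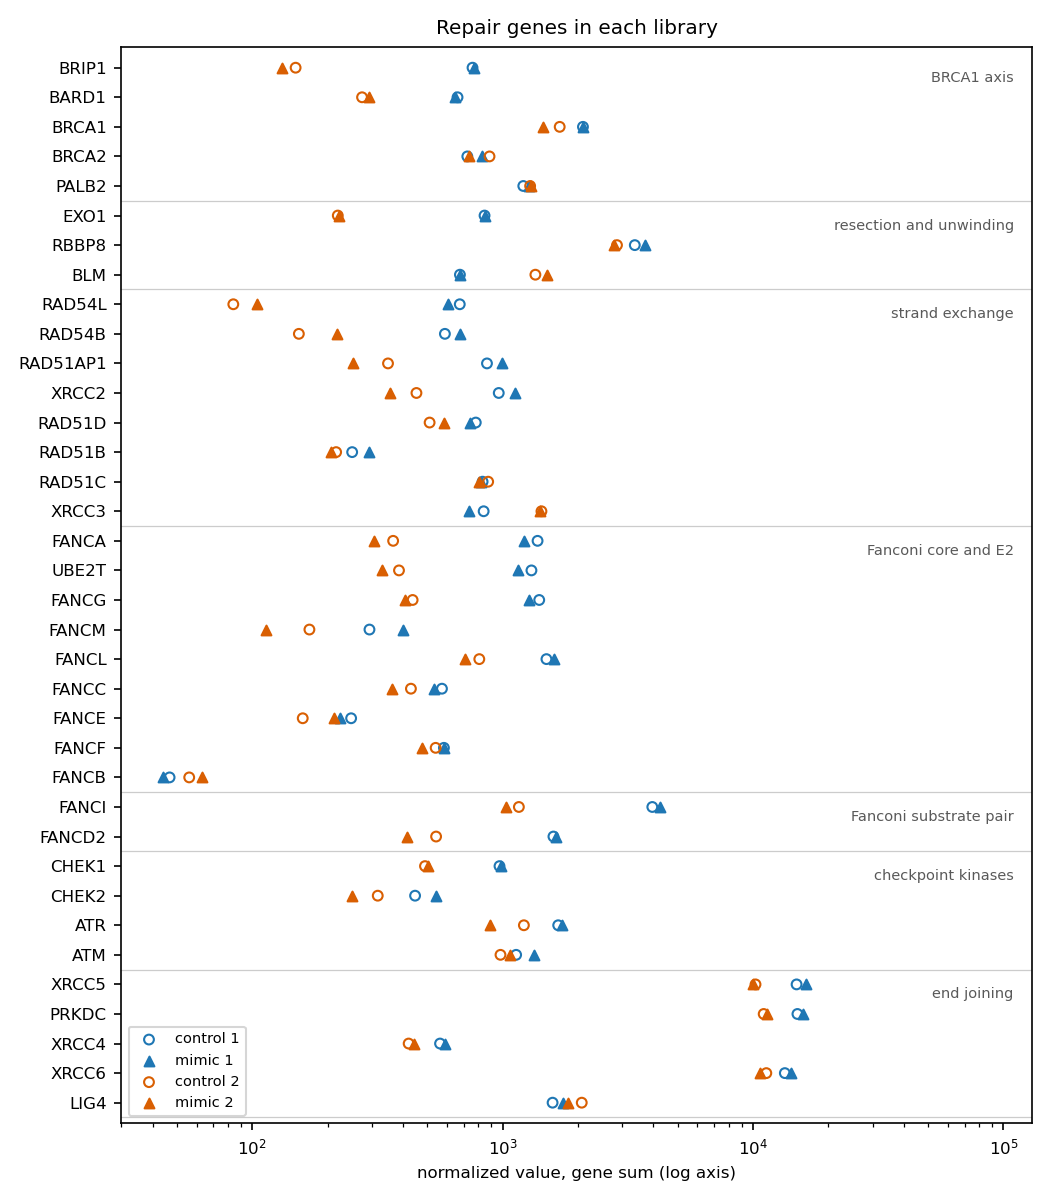
Normalized value of each member (gene sum, log axis) in the 4 libraries, grouped by role; circles are controls, triangles mimic libraries, blue is number 1 and orange number 2. In most rows the blue symbols lie to the right of the orange ones, while BLM, XRCC3, FANCB, LIG4 and, by little, PALB2 show the reverse. Circle and triangle of the same colour mostly lie close together.

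**Figure D3:**
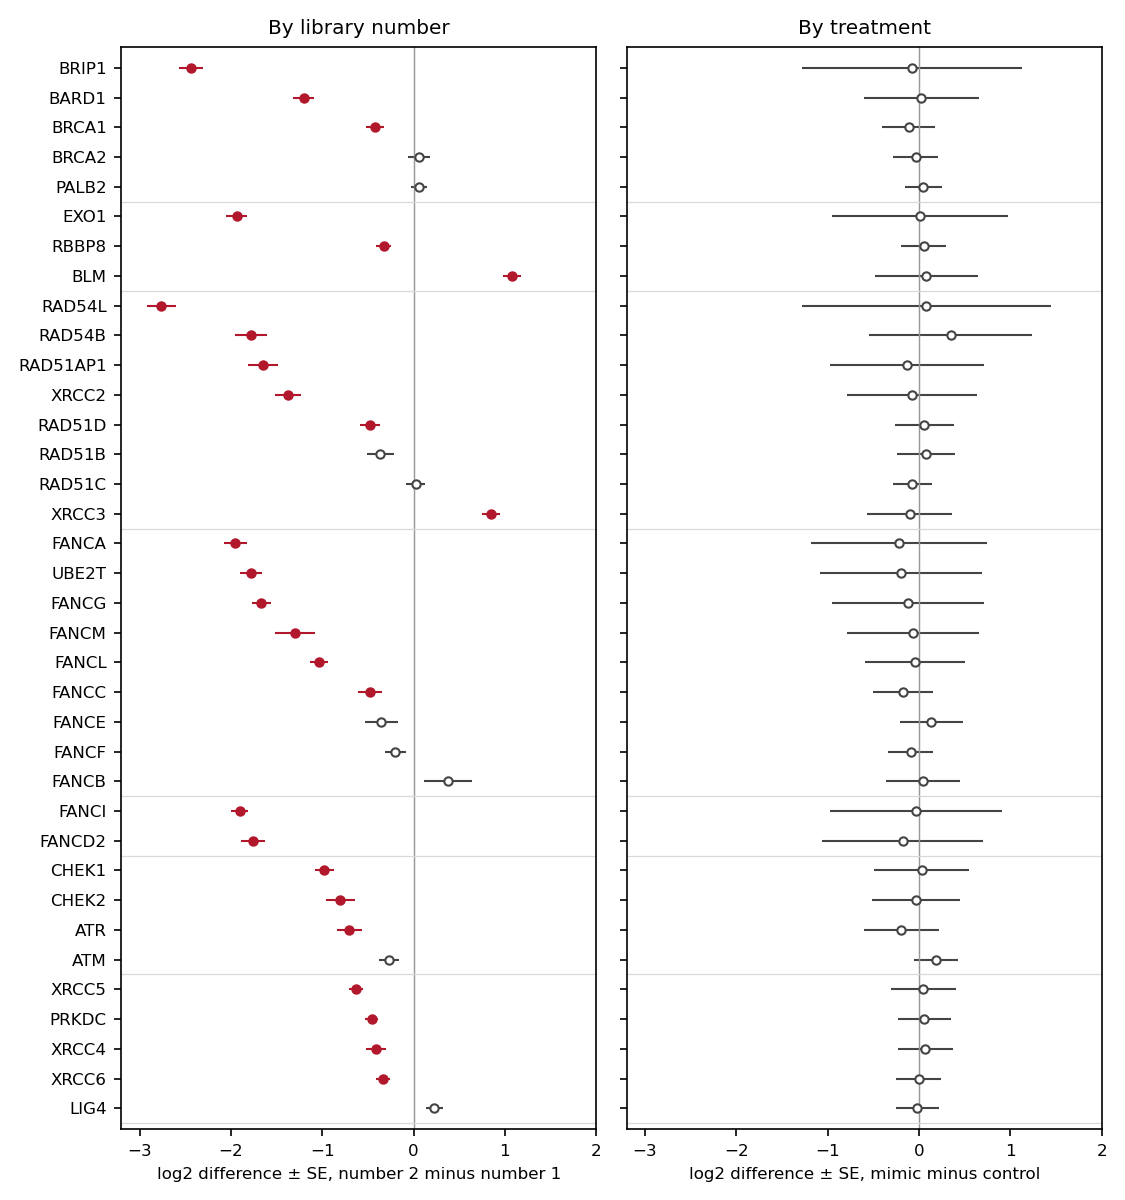
Log2 difference of each member with its standard error, between numbers (left) and between treatments (right); filled red points passed the limma test at an adjusted p under 0.05. In the left panel 25 members are lower in number 2 and 2 are higher; in the right panel no member passed.

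The start regions of the genes that moved together were searched for letters that cell-cycle factors are known to bind, in RefSeq windows (GRCh38.p14) from 250 bases before to 50 bases after each start. Windows were found for 32 of the 36 genes (all but FANCI, RAD54B, XRCC5 and PRKDC), and a gene was counted once if any of its windows held the letters on either strand. The E2F letters TTTCCCGC or TTTGGCGC stood in 3 of 29 recombination and Fanconi genes, against 2.75% of the 27305 genes of the whole RefSeq table and 4.35% of the 11713 genes that had a window and were tested. The 3 were FANCD2, XRCC2 and FANCC, all lower in number 2, which makes 3 of 19 called lower and 0 of 10 not called lower, a split that was not tested. Over all tested genes with a window, the E2F letters stood in 6.26% of those called lower and 3.5% of those called higher. Of 3 end joining genes with a window, XRCC6 held them. TTTGAA, the core of the element of mitotic promoters, stood in 4 of 29 (13.8%), against 18.2% of the whole table and 14.4% of the tested genes. CCAAT, bound by NF-Y, stood in 14 of 29 (48.3%), against 39.7% and 43.5%, and among the members in 47.4% of those called lower and 50.0% of the rest. None of the searched words contains another, and a match is a description of letters, not of binding. The windows of the 3 genes with E2F letters are shown 5' to 3' on the gene's strand, with those letters (or their reverse complement, GCGGGAAA) in capitals, followed by BLM and BRIP1. These 2 moved in opposite directions between the numbers, BLM higher and BRIP1 lower in number 2, and both hold CCAAT (or its reverse complement, ATTGG) at 3 places.
FANCD2 (chr3:10026187-10026486, + strand): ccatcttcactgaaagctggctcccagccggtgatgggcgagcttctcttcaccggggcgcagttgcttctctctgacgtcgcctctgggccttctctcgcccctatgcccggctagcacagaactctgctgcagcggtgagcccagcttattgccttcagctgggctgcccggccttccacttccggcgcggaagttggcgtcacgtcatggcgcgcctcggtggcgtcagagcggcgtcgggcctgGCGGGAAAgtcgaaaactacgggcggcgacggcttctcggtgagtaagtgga
XRCC2 (chr7:152676092-152676391, - strand): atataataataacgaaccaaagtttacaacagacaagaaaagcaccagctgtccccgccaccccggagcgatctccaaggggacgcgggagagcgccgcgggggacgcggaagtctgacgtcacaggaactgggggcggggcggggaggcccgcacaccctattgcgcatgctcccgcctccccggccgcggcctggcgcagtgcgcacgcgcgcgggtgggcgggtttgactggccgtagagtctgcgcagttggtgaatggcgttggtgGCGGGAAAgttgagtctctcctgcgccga
FANCC (chr9:95317660-95317959, - strand): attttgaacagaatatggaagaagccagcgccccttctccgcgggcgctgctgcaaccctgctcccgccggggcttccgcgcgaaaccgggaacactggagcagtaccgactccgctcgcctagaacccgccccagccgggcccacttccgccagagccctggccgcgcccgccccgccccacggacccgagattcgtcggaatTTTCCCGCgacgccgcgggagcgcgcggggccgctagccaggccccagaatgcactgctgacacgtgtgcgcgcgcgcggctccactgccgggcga
BLM (chr15:90717096-90717395, + strand): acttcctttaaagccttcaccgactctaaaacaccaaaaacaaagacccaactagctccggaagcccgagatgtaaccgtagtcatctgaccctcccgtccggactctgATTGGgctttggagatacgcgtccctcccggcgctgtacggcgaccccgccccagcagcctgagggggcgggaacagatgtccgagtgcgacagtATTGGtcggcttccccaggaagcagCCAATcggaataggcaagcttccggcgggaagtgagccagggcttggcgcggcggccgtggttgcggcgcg
BRIP1 (chr17:61863479-61863778, - strand): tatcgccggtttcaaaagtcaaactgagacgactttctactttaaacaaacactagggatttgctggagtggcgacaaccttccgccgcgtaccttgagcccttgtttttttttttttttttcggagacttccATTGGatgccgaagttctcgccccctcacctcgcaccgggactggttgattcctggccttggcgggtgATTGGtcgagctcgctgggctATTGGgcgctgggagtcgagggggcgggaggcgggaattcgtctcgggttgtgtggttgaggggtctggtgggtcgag
In FANCD2 the letters begin 2 bases before the start and in XRCC2 22 bases after it, while in FANCC they begin 46 bases before. The CCAAT letters of BLM begin 141, 46 and 21 bases before its start, and those of BRIP1 117, 49 and 28 bases before.

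In the BRCA1 group, BRIP1, BARD1 and BRCA1 were lower in number 2, and PALB2 and BRCA2 were not called. BRIP1, a helicase that binds BRCA1 (chr17:61681266-61863521, GRCh38 in GENCODE v29, as for the other coordinates below), had 758 (control 1), 769 (mimic 1), 149 (control 2) and 132 (mimic 2). Both number 2 libraries held about the same low level, 5.41-fold below number 1, a log2 difference of -2.44 ± 0.13 (SE, n = 2 per number, limma adjusted p = 1.35e-06). BARD1, which forms the BRCA1 ubiquitin ligase with it, had 661 (control 1), 645 (mimic 1), 275 (control 2) and 291 (mimic 2), a log2 difference of -1.20 ± 0.12 (limma adjusted p = 3.95e-05). BRCA1 itself (chr17:43044295-43170245), which promotes resection and recruits PALB2, was at 2093 (control 1), 2090.2 (mimic 1), 1689.9 (control 2) and 1443 (mimic 2), a log2 difference of -0.42 ± 0.10 (limma adjusted p = 0.00595). Without mimic 2 the BRCA1 difference was -0.31 (adjusted p = 0.0998) and no longer passed. BRCA2 (chr13:32315474-32400266), which prepares single strands for strand exchange, had 723 (control 1), 828 (mimic 1), 886 (control 2) and 734 (mimic 2). Its highest and lowest values were both controls, so neither the numbers nor the treatments separated, and its log2 difference between numbers was 0.061 ± 0.12 (limma adjusted p = 0.715). PALB2, which joins BRCA1 to BRCA2, stayed within 1209 to 1303 in the 4 libraries.

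The resection and unwinding genes moved in opposite directions. EXO1, the exonuclease of long-range resection (chr1:241847967-241895148), had 847 (control 1), 853 (mimic 1), 219.6 (control 2) and 222 (mimic 2). The libraries of each number nearly coincided, and the log2 difference was -1.94 ± 0.11 (SE, n = 2 per number, limma adjusted p = 2.15e-06). BLM, the RecQ helicase mutated in Bloom syndrome (chr15:90717327-90816165), had 675 (control 1), 677 (mimic 1), 1352 (control 2) and 1510.2 (mimic 2), so that both number 2 libraries lay above both number 1 libraries by 2.11-fold, a log2 difference of 1.08 ± 0.10 (limma adjusted p = 2.79e-05). RBBP8, which encodes CtIP and starts resection, had 3371 (control 1), 3712 (mimic 1), 2862 (control 2) and 2789 (mimic 2), a log2 difference of -0.32 ± 0.083 (limma adjusted p = 0.00982). The RBBP8 call was lost without control 2, at -0.34 (adjusted p = 0.0854), and without mimic 2, at -0.31 (adjusted p = 0.115).

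Among the genes of strand exchange the translocases RAD54L and RAD54B were far lower in number 2. RAD54L, which remodels DNA during strand exchange (chr1:46247688-46278473), had 674 (control 1), 607 (mimic 1), 84.0 (control 2) and 104 (mimic 2), a 6.78-fold lower level and the lowest log2 difference of all members, -2.76 ± 0.16 (SE, n = 2 per number, limma adjusted p = 2.00e-06). RAD54B had 588 (control 1), 673 (mimic 1), 154 (control 2) and 218 (mimic 2), a log2 difference of -1.78 ± 0.18 (limma adjusted p = 4.73e-05). RAD51AP1, which promotes the pairing of strands, had 866 (control 1), 996 (mimic 1), 349 (control 2) and 252 (mimic 2) (log2 difference -1.65 ± 0.16). In each of these genes every number 1 library lay above every number 2 library.

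RAD51B, RAD51C, RAD51D, XRCC2 and XRCC3, a family of related strand exchange genes, did not move as a block. XRCC2 had 965 (control 1), 1116 (mimic 1), 453 (control 2) and 354 (mimic 2) (log2 difference -1.37 ± 0.14, limma adjusted p = 5.61e-05). RAD51D, its direct partner, had 781 and 741 against 511 and 585 (number 1 control and mimic, then number 2 control and mimic), a log2 difference of -0.48 ± 0.11 (limma adjusted p = 0.00683), which was -0.38 (adjusted p = 0.0918) without control 2. RAD51B had 251 and 293 against 216 and 206 in the same order and did not pass (-0.36 ± 0.15, limma adjusted p = 0.0747). These genes encode, with RAD51C, the 4 subunits of 1 complex, of which XRCC2 and RAD51D were lower and RAD51B and RAD51C were not called. RAD51C had 832 and 819 against 875 and 803, with the numbers interleaved, and it also pairs with XRCC3 in a second complex. XRCC3 (chr14:103697609-103715504) was higher in number 2, with 839.9 (control 1), 737 (mimic 1), 1429 (control 2) and 1409 (mimic 2), or 1.80-fold (log2 difference 0.85 ± 0.10, limma adjusted p = 1.26e-04).

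In the Fanconi group, 6 of the 9 genes of the core complex and its ubiquitin-conjugating enzyme were lower in number 2. Of all genes tested, 24.2% were called lower. FANCA (chr16:89737549-89816657) had 1379 (control 1), 1214 (mimic 1), 365 (control 2) and 306 (mimic 2), a 3.86-fold lower level in number 2 (log2 difference -1.95 ± 0.13, SE, n = 2 per number, limma adjusted p = 3.59e-06). UBE2T, the ubiquitin-conjugating enzyme that works with the core complex, had 1303 (control 1), 1151 (mimic 1), 386 (control 2) and 330.0 (mimic 2) (log2 difference -1.78 ± 0.12), and FANCG had 1400.0 and 1278 against 437 and 406 (number 1 control and mimic, then number 2 control and mimic, log2 difference -1.67 ± 0.11). In all 3 genes number 2 held less than the lowest number 1 library. FANCM was at 294 and 399 against 169 and 114 in that order (log2 difference -1.30 ± 0.22), FANCL, the ubiquitin ligase subunit, at 1496 and 1606 against 807 and 708 (-1.04 ± 0.10), and FANCC at 572 and 529.7 against 430.3 and 363 (-0.48 ± 0.13). FANCC lost its call without control 1, at -0.42 (adjusted p = 0.0581), and without mimic 2, at -0.35 (adjusted p = 0.135). The core genes that were not called were FANCE (-0.36 ± 0.18), FANCF (-0.20 ± 0.11) and FANCB (0.38 ± 0.26), the last from values of 44.1 to 63.0.

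The substrate pair of the core complex was lower in step. FANCD2 (chr3:10026414-10101930), whose start region is shown above, had 1595 (control 1), 1629 (mimic 1), 542 (control 2) and 415 (mimic 2), a 3.39-fold lower level in number 2 (log2 difference -1.76 ± 0.13, SE, n = 2 per number, limma adjusted p = 8.15e-06). FANCI (chr15:89243949-89317261), its partner in the clamp that closes on DNA, had 3960.2 (control 1), 4243 (mimic 1), 1161 (control 2) and 1032 (mimic 2), a 3.74-fold lower level (log2 difference -1.90 ± 0.092, limma adjusted p = 6.85e-07). For both genes the treatment moved the value little beside that: FANCI differed by 0.10 between treatments in number 1 and by -0.17 in number 2, and FANCD2 by 0.030 and -0.38.

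Of the checkpoint kinases, ATR, CHEK1 and CHEK2 were lower in number 2, and ATM was not called. ATR, the kinase that senses single-stranded DNA at stalled forks, had 1667 (control 1), 1730.2 (mimic 1), 1216 (control 2) and 894 (mimic 2) (log2 difference -0.70 ± 0.14, SE, n = 2 per number, limma adjusted p = 0.0023). CHEK1, the kinase it activates, had 972 (control 1), 983 (mimic 1), 489.7 (control 2) and 504 (mimic 2) (log2 difference -0.97 ± 0.10, limma adjusted p = 5.50e-05). CHEK2, the kinase that ATM activates at breaks, had 447 (control 1), 541 (mimic 1), 317 (control 2) and 249.8 (mimic 2) (log2 difference -0.80 ± 0.16, limma adjusted p = 0.00262). In all 3 the number 1 values lay above the number 2 values. ATM had 1132 (control 1), 1335 (mimic 1), 981 (control 2) and 1069 (mimic 2), with mimic 2 close below control 1, and did not pass (-0.26 ± 0.11, limma adjusted p = 0.0719). Without control 1 the ATM difference was -0.38 (adjusted p = 0.0186) and passed.

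Of the end joining genes, the Ku pair, its kinase and XRCC4 were lower in number 2. XRCC5 (chr2:216107464-216206303), which encodes Ku80, had 14923 (control 1), 16306 (mimic 1), 10229 (control 2) and 9957 (mimic 2) (log2 difference -0.63 ± 0.079, SE, n = 2 per number, limma adjusted p = 1.89e-04). XRCC6, its partner Ku70, had 13396 (control 1), 14211 (mimic 1), 11298 (control 2) and 10618 (mimic 2) (-0.33 ± 0.078, limma adjusted p = 0.00645). PRKDC, the kinase that Ku recruits to broken ends, had 15040.1 (control 1), 15792 (mimic 1), 11027 (control 2) and 11390.0 (mimic 2) (-0.46 ± 0.075, limma adjusted p = 8.77e-04). In all 3 the number 1 libraries held more, but by 1.26-fold to 1.55-fold. XRCC4, the scaffold of the ligase, had 562 (control 1), 588 (mimic 1), 421 (control 2) and 443 (mimic 2) (-0.41 ± 0.11, limma adjusted p = 0.013). LIG4, the ligase itself, had 1583 (control 1), 1741 (mimic 1), 2069.8 (control 2) and 1832 (mimic 2), the opposite order (0.23 ± 0.10, limma adjusted p = 0.0766). Several of these calls changed with 1 library left out, while the differences kept their sign. Such a fit has 1 library in a group and less data on the spread. Without control 2 the differences of XRCC4 and XRCC6 were -0.38 (adjusted p = 0.107) and -0.38 (adjusted p = 0.0608). Without mimic 2 they were -0.45 (adjusted p = 0.0719) and -0.29 (adjusted p = 0.125). The LIG4 difference was 0.30 (adjusted p = 0.0459) without mimic 1.

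Levels were compared between genes per kb of transcript, as the mean of the libraries of each number. XRCC6 was highest in both numbers, with 6165 per kb in number 1 and 4889 in number 2, followed by XRCC5 with 4737 and 3036 and PRKDC with 1549 and 1157. In number 1 the recombination and Fanconi genes with the highest level per kb were UBE2T (1378), FANCI (1237), RBBP8 (1228) and FANCL (1038). In number 2 they were RBBP8 (986), RAD51C (859) and XRCC3 (706), with UBE2T at 405 and FANCI at 333 per kb. RAD54L and BRIP1 fell to 32.7 and 33.0 per kb in number 2, from 227 and 153, close to FANCB (27.5 and 20.7), the lowest member in both numbers. BRCA2, at 93.8 and 85.3 per kb, was low throughout.

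The gene sums were then split into annotated transcripts. Among 170 tested transcripts of the recombination and Fanconi genes, 19 were lower in number 2, from 15 genes, and 2 were higher, both of BLM. Over all 58500 transcripts tested, 3.89% were called lower and 4.42% higher. The 23 tested end joining transcripts gave 3 lower (XRCC5-201, XRCC5-206 and PRKDC-201) and 1 higher (LIG4-204). Of the 19 lower transcripts all but FANCI-212 and RAD51AP1-205 were protein-coding. FANCI-202 had 2900 and 3043 against 868 and 793 (number 1 control and mimic, then number 2), and FANCD2-202 had 1026 and 1144 against 318 and 263. Some genes called lower as gene sums differed less with the highest transcript alone and did not pass: RBBP8 (-0.023), XRCC4 (-0.11) and XRCC6 (-0.15). The main transcript RBBP8-201 was level (2269, 2621, 2357 and 2445 in control 1, mimic 1, control 2 and mimic 2), and the lower gene sum came with RBBP8-204 (746 and 556 against 199 and 131). LIG4-204 was at 150 and 111, then 433 and 524 in the same order, while the main transcript LIG4-203 had 1328 and 1367 against 1517 and 1245.

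BLM, FANCB and CHEK2 also differed between the numbers in the class shares of their transcripts, and these shares were not tested. Coding transcripts made up 4.31% and 18.1% of the BLM sum in the number 1 libraries (control, then mimic) and 41.8% and 30.9% in number 2, and those annotated for nonsense-mediated decay, a pathway that removes messages with an early stop, made up 78.4% and 72.1% against 32.9% and 42.7%. BLM-208, a coding transcript, had 3.12 in control 1 and was listed at 0 in mimic 1, against 217 and 165 in number 2. With the highest transcript alone (BLM-211, of the decay class) the BLM difference was 0.70 and did not pass (limma adjusted p = 0.302). Every coding FANCB transcript was listed at 0 in both number 1 libraries and they summed to 48.2 and 49.7 in number 2, while the decay-class transcript FANCB-205, its highest, had 39.5 and 34.2 against 7.84 and 13.4. The FANCB difference therefore turned with the transcripts kept: 0.38 for the gene sum and not called, higher in number 2 for coding transcripts (limma adjusted p = 2.16e-04) and -1.74 for the highest transcript (limma adjusted p = 0.0287). In the test over all transcripts, FANCB-205 did not pass (limma adjusted p = 0.119). The coding share of CHEK2 was 82.1% and 75.4% in number 1 and 60.1% and 56.5% in number 2. No CHEK2 transcript was called between numbers, and the highest, CHEK2-208, was at 138 and 59.4, then 52.7 and 0. Coding transcripts held 90.1% to 91.1% of all matched values in every library, so these shifts were not shared by the libraries as a whole. The 2 highest transcripts of ATM differed in opposite directions between the numbers. ATM-201 was at 391 and 849, then 85.2 and 144 (number 1 control and mimic, then number 2), and ATM-203 at 556 and 288, then 719 and 678. Their order also differed between control 1 and mimic 1. In the test over all transcripts neither passed between numbers (limma adjusted p = 0.0638 for ATM-201 and 0.237 for ATM-203). Reads that fit several transcripts were divided among them by the authors' tool, and the part of that step in these values was not tested.

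**Figure D4:**
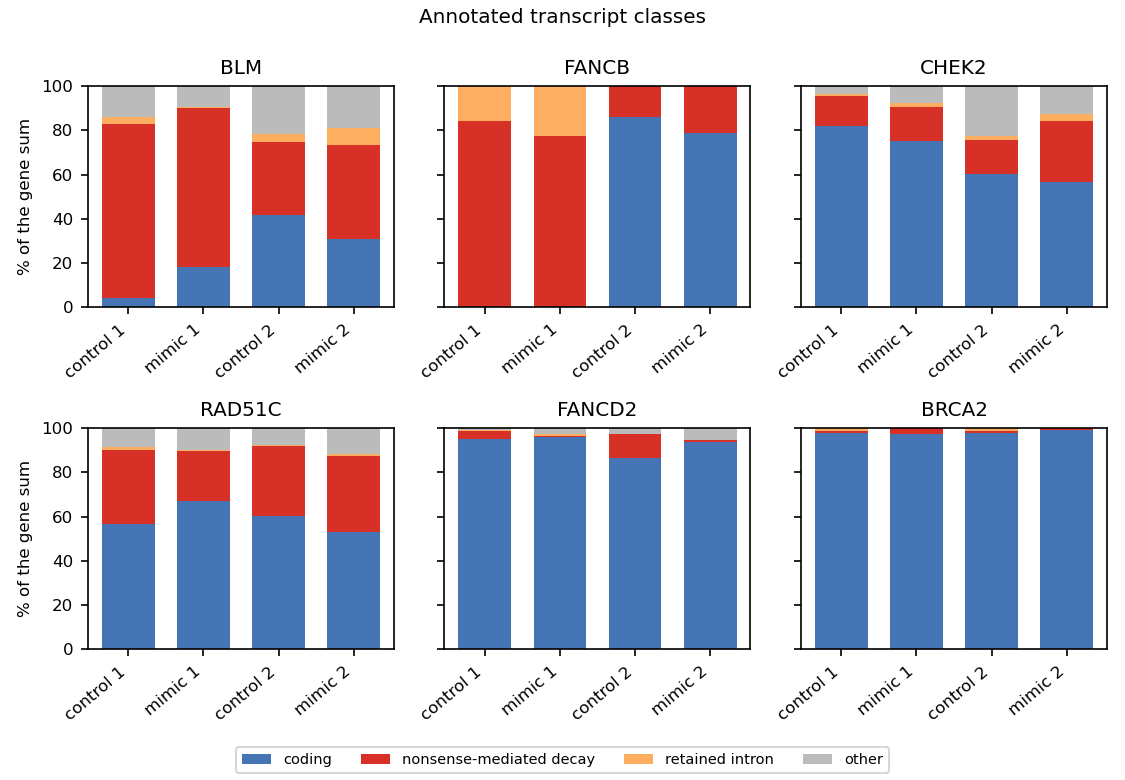
Share of each gene's summed value (%) held by coding, nonsense-mediated decay, retained intron and other annotated transcripts in each library, for 6 members. The coding share of BLM is 4.31% and 18.1% in number 1 and 41.8% and 30.9% in number 2, FANCB changes from no coding value to 86.0% and 78.8%, and BRCA2 and FANCD2 stay mostly coding in every library.

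Other repair genes were taken from lists of the same pathways without the members, whose median between numbers was -0.80 (recombination and Fanconi) and -0.41 (end joining). Of 41 other recombination genes, 23 were lower and 8 higher in number 2, with a median of -0.30, from TONSL (-2.29), which acts at stalled forks, to ZSWIM7 (0.84). Of 17 other Fanconi and crosslink repair genes, 7 were lower and 1 was higher (median -0.24, from UHRF1 at -1.58 to ERCC4 at 0.51). Of 14 other end joining genes, 1 was lower and 3 were higher (median 0.0022, with APLF highest at 1.06). Over all genes tested, 24.2% were called lower and 26.0% higher, beside 7.14% and 21.4% of these 14.

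Replication and division genes were lower in number 2, with medians further from 0 than that of the members. Of 20 S phase genes 19 were lower and none higher (median -1.90, from RRM2 at -2.92 to CCNE1 at -0.34, which was not called). All 20 mitotic genes were lower (median -1.85, from KIF20A at -3.77 to UBE2C at -0.82). The summed S phase list was 71943 and 69010.2 in number 1 against 20528 and 17955 in number 2, beside 33230.1 and 34320.2 against 20848 and 19498 for the 31 members. The part of these growth genes in the members' difference was not tested. Checkpoint genes had 13 lower and 1 higher of 17 (median -0.89, from CLSPN at -2.49 to RAD17 at 0.70). Base excision repair had 8 lower and 1 higher of 17 (median -0.39, from LIG1 at -2.36 to SMUG1 at 0.45). Mismatch repair had 3 lower and 3 higher of 7 (median -0.26, from MSH6 at -1.09 to PMS1 at 0.85). Nucleotide excision repair had 4 lower and 5 higher of 18 (median -0.053, from ERCC5 at -0.99 to XPC at 0.90). Those 18 genes, with 22.2% lower and 27.8% higher, lay near the 24.2% and 26.0% of all genes tested. In the comparison of treatments no gene of any of these lists was called, and the list medians lay between -0.14 (S phase) and 0.045 (nucleotide excision repair).

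**Figure D5:**
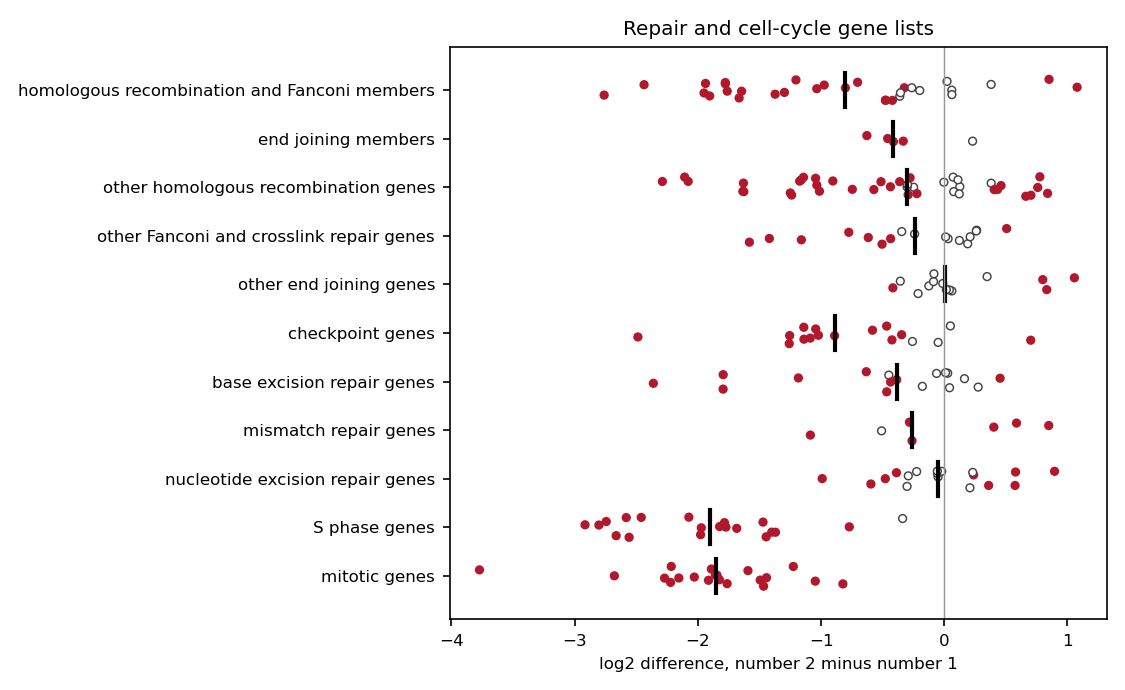
Log2 difference between number 2 and number 1 for each tested gene of the repair and cell-cycle lists; filled red points passed the limma test, open points did not, and the black bar is the list median. The bars lie near -1.90 and -1.85 for the S phase and mitotic lists, at -0.80 for the recombination and Fanconi members, and near 0 for the other end joining genes.

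Some members share sequence or position with other genes. Of the 36, 13 overlap another gene with a mean value of at least 10 in the annotation, among them XRCC3 with KLC1, FANCI with POLG, ATM with NPAT and FANCA with ZNF276, all on the opposite strand. On the same strand, RAD54B overlaps FSBP, CHEK1 overlaps STT3A and BRCA1 overlaps a gene without a symbol. Pseudogenes by name exist for 6 members (BRCA1, RAD51AP1, RBBP8, FANCD2, CHEK2 with 7 and XRCC6 with 5), and none of these pseudogenes reached a mean of 10. The library kit keeps the strand, but whether the counting used it is not given in the sources used here, so values of these members are less certain.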

How the data were processed

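Poly(A)-selected RNA of 4 libraries was sequenced in pairs from a strand-keeping kit, per the labels' protocols. Per the submitters' processing notes the authors used kallisto, DESeq2 and hg38; versions and the annotation release are not given in the sources used here. The deposited signal is a normalized count per Ensembl transcript. Its low values were whole multiples of 1 step per library for 95.6% to 99.7% of values (tolerance 0.1), and dividing by that step gave approximate whole reads, 28860788 to 33848402 per library, for edgeR and DESeq2. Of 100809 transcripts 90643 (89.9%) matched GENCODE v29. The rest held 3.25% to 3.56% of the value and were left out.

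Genes whose sums averaged at least 10 were tested with limma (trend), after log2(value + 1), two-sided, Benjamini-Hochberg at 0.05. The treatment comparison had no replicate term; number 2 was compared with number 1 in the same way. Fold changes on this scale understate the change of low genes. Every member was named; other lists are given by counts, median and extreme genes, of which some are not reported here. Members and lists were chosen with earlier results of these data known. The limma test was tried on simulated data, in which the treatment trial held no difference between numbers. That trial therefore does not speak to the treatment comparison as run, and its outcome is not reported here. R 4.3.3, limma 3.58.1, edgeR 4.0.16, DESeq2 1.42.0, Python 3.11.15, numpy 2.4.6, pandas 2.3.3 and matplotlib 3.10.9 were used. Alternatives were other pseudocounts (0.1, 5), filters, TMM, both count tools, coding or highest transcripts, a replicate or treatment term, and each library left out.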

Additional observations from a re-analysis of the deposited data

Results flagged for a closer look

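BRCA2 and RAD51C moved in opposite directions between the numbers in the 2 treatments. BRCA2 was higher in number 2 in the controls (log2 0.29) and lower in the mimic libraries (-0.17), so the mimic difference minus the control difference was -0.47. RAD51C had 0.074 in the controls and -0.029 in the mimic libraries, a gap of -0.10. Each value rests on single libraries, the difference between treatments was not tested, and neither gene passed the limma test in either comparison.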

How the results depend on the processing

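No member was called between treatments in any alternative, and the count of all genes called was 0 in each except the fit with a replicate block, which gave 117. Nothing in the labels pairs libraries that carry the same number, and 2 pairs are too few to check it. Some members' treatment differences, none of them called, changed sign with the method. On recovered reads edgeR gave CHEK2 0.053, FANCI 0.046, FANCL 0.011, FANCM 0.15, RAD51AP1 0.044, RAD54L -0.089, XRCC2 0.057 and XRCC6 0.012, and DESeq2, in that order, 0.054, 0.048, 0.012, 0.15, 0.046, -0.086, 0.058 and 0.013. The highest transcript alone gave ATM -0.52, BARD1 -0.077, BLM -0.13, CHEK1 -0.23, FANCA 0.14, FANCE -0.0048, FANCL 0.075, FANCM 0.40, PALB2 -0.39 and XRCC3 0.073, and coding transcripts alone BARD1 -0.025 and FANCE -0.0048. The cause was not tested. Leaving out 1 library sets 1 number against both, so the difference between numbers enters by construction: the median treatment difference then ran from -0.47 to 0.51 for the recombination and Fanconi genes and from -0.18 to 0.28 for end joining. By gene it ran as follows: ATR -0.67 to 0.28, BARD1 -0.61 to 0.66, BLM -0.50 to 0.66, BRCA1 -0.38 to 0.15, BRCA2 -0.18 to 0.11, BRIP1 -1.35 to 1.19, CHEK1 -0.46 to 0.52, CHEK2 -0.59 to 0.52, EXO1 -0.96 to 0.98, FANCA -1.21 to 0.77, FANCB -0.21 to 0.29, FANCC -0.45 to 0.094, FANCD2 -1.16 to 0.81, FANCE -0.18 to 0.45, FANCF -0.23 to 0.054, FANCG -0.96 to 0.72, FANCI -1.06 to 0.98, FANCL -0.63 to 0.55, FANCM -0.97 to 0.84, LIG4 -0.21 to 0.17, PRKDC -0.18 to 0.29, RAD51AP1 -1.12 to 0.86, RAD51B -0.18 to 0.33, RAD51D -0.25 to 0.36, RAD54B -0.62 to 1.31, RAD54L -1.42 to 1.57, RBBP8 -0.16 to 0.26, UBE2T -1.10 to 0.70, XRCC2 -0.90 to 0.76, XRCC3 -0.57 to 0.36, XRCC4 -0.14 to 0.28, XRCC5 -0.31 to 0.40, XRCC6 -0.21 to 0.21.

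Between numbers, 18 to 22 of the 31 recombination and Fanconi genes were called lower in every alternative. All genes called ran from 5163 to 7942 with 1 library left out, those higher from 2577 to 4281 and those lower from 2586 to 3792. End joining genes called ran from 2 to 5. With the highest transcript alone, 2 end joining genes were called, 1 recombination gene was called higher, and the medians were -1.20 (recombination and Fanconi) and -0.15 (end joining); RBBP8, BLM, CHEK2, XRCC4 and XRCC6 lost their calls, ATM was 0.80 and FANCB -1.74. The end joining median was -0.408 under TMM, -0.376 with coding transcripts and -0.45 to -0.38 with 1 library left out, beside -0.416 within the controls and -0.421 within the mimic libraries. RAD51C was -0.10 with coding transcripts, and with 1 library left out BRCA2 ran -0.075 to 0.20 and RAD51C -0.040 to 0.085. ATM passed with treatment as a term (adjusted p = 0.041) and with coding transcripts (0.0381). Depth limits FANCB most, at 44.1 to 63.0.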
